A study of Mus musculus with 2 samples.

Results

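Chemokines are small secreted proteins that steer migrating leukocytes, and they are sorted by the spacing of their first cysteines into the CC, CXC, CX3C and C families. They act through membrane receptors that couple to inhibitory G proteins, while atypical receptors bind the ligands without that signal and clear or present them. In the gut, epithelial cells make chemokines that draw lymphocytes and plasma cells to the mucosa in health, and others that draw neutrophils, monocytes and T cells when interferon or bacterial signals are sensed. The set described here was chosen by gene symbol alone, as the rows of the expression table named as numbered CC or CXC ligands or receptors, the fractalkine and lymphotactin ligands and receptors, the atypical receptors Ackr1 to Ackr4, and Ccrl2. It held 57 of the 18067 genes in the table, made up of 34 ligands, 18 receptors and 5 atypical receptors.

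Bulk RNA-seq compared mice of the circBtnl1 wild-type genotype (1 library) with mice of the circBtnl1 knockout genotype (1 library), and the study looked for transcription factors that differ. circBtnl1 is a circular RNA named after the butyrophilin-like gene Btnl1. Both samples were labelled as intestinal stem cells of the small intestine. The age, sex and number of the mice, how the circular RNA was removed and how the cells were isolated were not given in the sources used here. With 1 library a genotype there was no replicate error and no test, so each difference below is between those libraries, and genotype cannot be told apart from any other difference between them.

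Values are in TPM (transcripts per 1000000, corrected for length), and the wild-type value always comes first. A gene was called measured if its 2 values averaged 1 TPM or more, and a difference was counted at 2-fold or more on the log2(TPM + 0.1) scale. The depth, estimated from the lowest values, was about 18500000 wild-type and 16000000 knockout reads. Of 6 stem cell markers, Lgr5 stood at 3.13 against 1.55 TPM, Olfm4 at 0.2 TPM against a listed 0, Ascl2 at 3.88 against 4.83 TPM, Smoc2 at 15.5 against 7.72 TPM, Axin2 at 16.9 against 19.2 TPM and Sox9 at 21.3 against 39.2 TPM. The epithelial differentiation keratin Krt20 stood at 2065 against 919 TPM. Of 3 enterocyte genes looked up, Alpi stood at 42.6 against 33.7 TPM, Fabp1 at 2.08 against 0.5 TPM and Lct at a listed 0 against 0.04 TPM. The Y-linked gene Ddx3y stood at 0.04 against 4.27 TPM, so the libraries also differed in RNA of the Y chromosome.

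Of the measured chemokine genes 17 were lower in the knockout library by any amount and 8 higher, while the table as a whole leaned higher. Chemokine genes at 1 TPM or more in both libraries were not mostly lower, as given below. Of the 57 genes, 25 were measured, and 11 of these (44%) were lower by 2-fold or more after knockout, where 5.25% of all 12666 measured genes were. Only 1 of the 25 (4%), Ccl25, was at least 2-fold higher, where 23.1% of all measured genes were. The median log2 ratio of knockout to wild type was -0.55 over the measured chemokine genes and 0.39 over all measured genes. The floor shaped these counts: 9 of the 11 lower genes were under 1 TPM in the knockout library and so passed it through the wild-type value. They were Ccl7, Ccl8, Cxcl2, Cxcl5, Cxcl9, Cxcl13, Cxcl17, Cxcr3 and Ccrl2. Among the 14 chemokine genes at 1 TPM or more in both libraries, 2 were at least 2-fold lower and 1 higher, beside 4.49% and 18.7% of all genes that met the same floor. The median log2 ratio of these 14 was 0.02, beside 0.34 over all genes that met that floor.

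**Figure D1:**
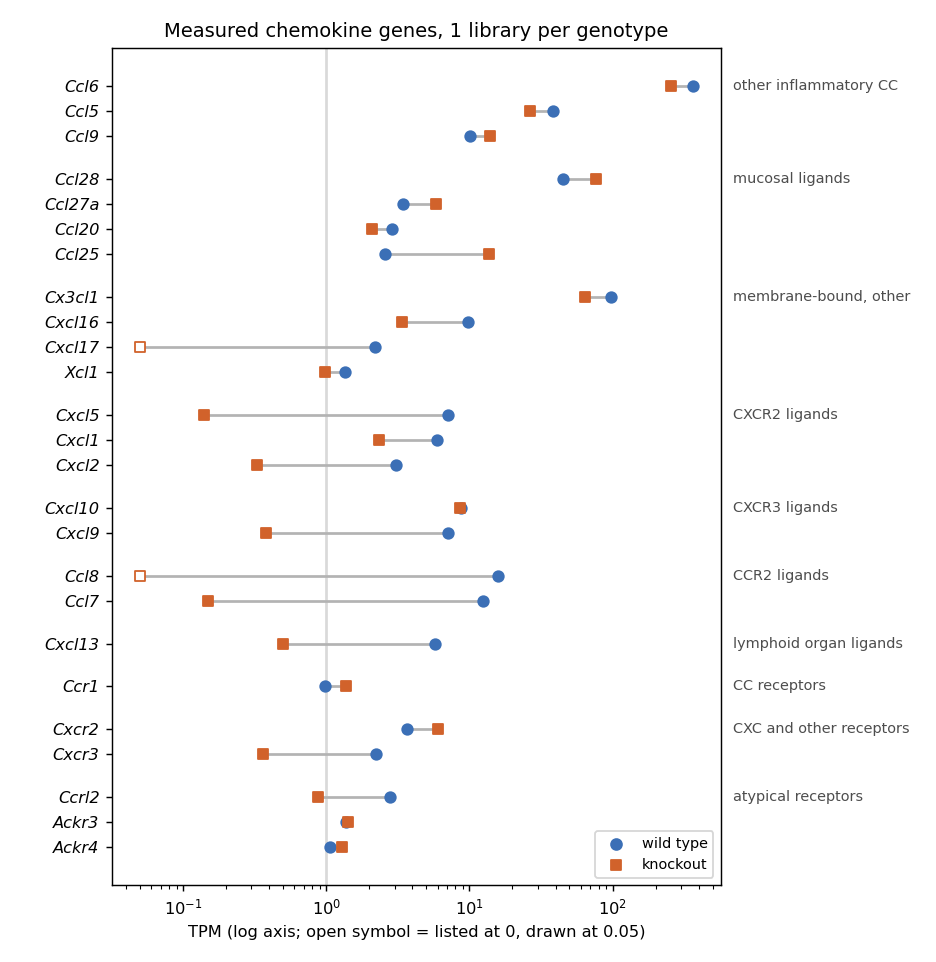
TPM on a log axis of the 25 measured chemokine genes in the wild-type library (circles) and the knockout library (squares), grouped by role, with a line joining the 2 values of a gene and open symbols for values listed at 0. The genes labelled as CXCR2, CCR2 and lymphoid organ ligands lay to the left in the knockout library, while Ccl25 and Ccl28 lay to the right. The labels are list names, and receptor use was not tested.

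The CXC ligands that draw neutrophils or activated T cells lie on mouse chromosome 5, Cxcl5, Cxcl1 and Cxcl2 in 1 block and Cxcl9 and Cxcl10 further along. Promoters are shown for the measured ones for which a promoter sequence was matched. Cxcl5, also measured, had no match. Of the 4 genes below, 3 were lower by 2-fold or more after knockout and Cxcl10 was nearly equal. The 250 bases before the start of 4 of these genes, from RefSeq on build GRCm38.p6, are written 5′ to 3′ on the gene's own strand. Capitals mark matches to an NF-kappaB motif (GGG, any 5 bases, CC) or an interferon-stimulated response element (GAAA, any 2 bases, GAAA), searched on both strands with overlapping matches joined.
Cxcl1, plus strand, chr5:90890995-90891244: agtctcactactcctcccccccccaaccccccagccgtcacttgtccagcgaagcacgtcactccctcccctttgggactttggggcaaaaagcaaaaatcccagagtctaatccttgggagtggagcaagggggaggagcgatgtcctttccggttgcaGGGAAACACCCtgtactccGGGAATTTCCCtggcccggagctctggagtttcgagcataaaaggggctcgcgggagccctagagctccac
Cxcl2, plus strand, chr5:90903649-90903898: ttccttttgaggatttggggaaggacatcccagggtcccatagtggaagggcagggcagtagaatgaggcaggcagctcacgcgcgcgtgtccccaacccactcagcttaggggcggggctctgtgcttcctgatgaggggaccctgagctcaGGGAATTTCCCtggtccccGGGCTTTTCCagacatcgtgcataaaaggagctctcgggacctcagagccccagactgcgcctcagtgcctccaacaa
Cxcl9, minus strand, chr5:92328080-92328329: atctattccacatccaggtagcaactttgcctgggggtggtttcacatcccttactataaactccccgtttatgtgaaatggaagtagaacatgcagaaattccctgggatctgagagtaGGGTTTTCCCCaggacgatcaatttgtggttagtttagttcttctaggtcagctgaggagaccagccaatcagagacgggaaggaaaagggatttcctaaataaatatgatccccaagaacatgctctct
Cxcl10, minus strand, chr5:92348890-92349139: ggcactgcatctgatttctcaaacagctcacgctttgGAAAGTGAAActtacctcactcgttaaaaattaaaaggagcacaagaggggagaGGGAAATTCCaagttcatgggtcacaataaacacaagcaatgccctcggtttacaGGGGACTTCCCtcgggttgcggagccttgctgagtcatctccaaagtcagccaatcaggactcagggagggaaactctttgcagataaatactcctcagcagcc

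Cxcl1 and Cxcl2 each held 2 NF-kappaB stretches, and both held the same letters GGGAATTTCCC. Cxcl9 held 1 NF-kappaB stretch, whereas Cxcl10 held 2 and also the response element. A promoter was matched for 43 of the 57 chemokine genes and for 20 of the 25 measured ones. In windows of 300 bases that also take in the first 50 transcribed bases, the NF-kappaB motif was found in 14 of the 20 measured chemokine genes (70%), and in 71.5% of all measured genes with a promoter. It was found in 6 of 7 measured genes that were at least 2-fold lower and in 8 of 13 that were not. The response element was found in 1 of the 20, Cxcl10 (5%), and in 3.73% of all measured genes. A gamma-activated site (TTCNNNGAA) was found in none (0) of the 20 and in 8.29% of all measured genes. These are matches of letters in a short window, and no binding was measured.

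The ligands of the neutrophil receptor CXCR2 were lower in the knockout library. Cxcl5, made by epithelial cells, stood at 7.12 against 0.14 TPM, a log2 ratio of -4.91, or about 100 reads against 2 at the estimated depth. Cxcl2 stood at 3.05 against 0.33 TPM, a log2 ratio of -2.87, and Cxcl1 at 5.96 against 2.35 TPM, 2.54-fold lower. All 3 measured members of this group were thus at least 2-fold lower, beside 5.25% of all measured genes, but Cxcl5 and Cxcl2 were measured only through their wild-type values. Cxcl3, just under the floor by its mean, stood at 1.57 TPM against a listed 0, while Cxcl15, a chemokine known from the lung, was near 0 in both libraries (0.1 against 0.11 TPM). The receptor Cxcr2 did not follow its ligands and stood at 3.64 against 6.01 TPM, and Cxcr1 at 0.07 TPM against a listed 0.

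The ligands of the T cell receptor CXCR3 differed from each other. Cxcl9, which interferon-gamma induces, stood at 7.11 against 0.38 TPM, a log2 ratio of -3.91, or about 184 against 9 reads. Cxcl10, which type I interferon and NF-kappaB also induce, stood at 8.7 against 8.64 TPM. The wild-type levels of this pair were close, and in the knockout library Cxcl10 was nearly the same and Cxcl9 near 0. Their receptor gene Cxcr3, carried by activated T and NK cells, stood at 2.21 against 0.36 TPM, a log2 ratio of -2.33, or about 34 against 5 reads. Both Cxcl9 and Cxcr3 were measured only through their wild-type values.

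The CC ligand genes Ccl8 and Ccl7, listed here in a group with Ccl2 and Ccl12, were lower in the knockout library. Ccl8 stood at 15.97 TPM in the wild-type library, about 73 reads, and was listed at 0 in the knockout library. Ccl7 stood at 12.39 against 0.15 TPM, a log2 ratio of -5.64, or about 89 reads against 1. Both Ccl8 and Ccl7 were measured only through their wild-type values. Ccl2, the main ligand of CCR2 on monocytes, was far less abundant in the wild-type library and under the floor by its mean, at 1.5 against 0.15 TPM. Ccl12, the other member of this group, was listed at 0 in both libraries. Ccr2 itself stood at 0.46 against 0.13 TPM.

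**Figure D2:**
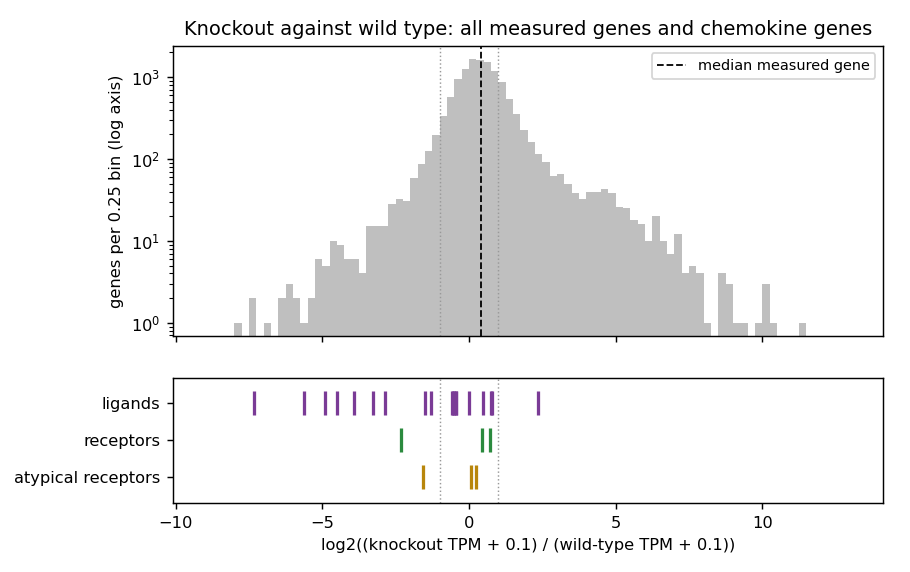
The upper panel counts all 12666 measured genes by log2 ratio of knockout to wild type (log count axis, bins of 0.25), with a dashed line at their median of 0.39 and dotted lines at 2-fold. Ticks in the lower panel mark the 19 measured ligands, 3 receptors and 3 atypical receptors. Of the ligands 9 lay at or below -1 and 1 lay above 1.

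The most abundant chemokine genes, Ccl6, Cx3cl1, Ccl28 and Ccl5, were less than 2-fold apart in TPM. Set against the median gene, whose log2 ratio was 0.39, they stood at -0.90 (Ccl6), -0.98 (Cx3cl1), 0.38 (Ccl28) and -0.94 (Ccl5). Ccl6, a rodent CC ligand of the receptor CCR1, stood at 365 against 257 TPM and alone held 56% (wild type) and 53.7% (knockout) of all ligand TPM. It was above 97.5% and 96.7% of all genes in the table. Its relative Ccl9 stood at 10.03 against 13.85 TPM, and Ccl5, a product of cytotoxic T and NK cells, at 38.7 against 26.4 TPM. Ccl3 was listed at 0 in the knockout library and stood at 1.12 TPM, about 8 reads, in the wild-type library, while Ccl4 stood at 0.34 against 0.91 TPM. Ccl3 and Ccl4 overlap in the RefSeq annotation and both were low, so how reads were divided between them is uncertain. The receptor Ccr1 stood at 0.98 against 1.38 TPM.

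Of the 4 ligands of the receptors CCR6, CCR9 and CCR10, 1 was at least 2-fold higher (25%, beside 23.1% of all measured genes). Ccl25, the ligand of the gut-homing receptor CCR9, stood at 2.58 against 13.66 TPM, 5.29-fold higher in the knockout library, or about 24 against 116 reads. Ccl28, which draws antibody-secreting cells through CCR10, stood at 45 against 76.9 TPM (1.71-fold higher), and Ccl27a, the other CCR10 ligand, at 3.44 against 5.8 TPM (1.69-fold higher). Relative to the median gene, which was itself higher in the knockout library, the log2 ratio was 1.97 for Ccl25, 0.38 for Ccl28 and 0.35 for Ccl27a. Ccl20, the CCR6 ligand made over lymphoid follicles, was lower, at 2.89 against 2.09 TPM. The matching receptors were low, with Ccr9 at 0.27 against 0.08 TPM, Ccr10 at 0.56 against 1.01 TPM and Ccr6 at 0.26 TPM against a listed 0. None (0) of the 4 ligands of this group was at least 2-fold lower, beside 5.25% of all measured genes. Their summed level was 53.9 against 98.5 TPM.

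The membrane-anchored ligands were lower in the knockout library by different amounts. Cx3cl1 (fractalkine), which holds CX3CR1-bearing macrophages at the epithelium, stood at 97.4 against 64.7 TPM, 1.51-fold lower. Cxcl16, the ligand of CXCR6 on resident lymphocytes, stood at 9.82 against 3.41 TPM, 2.88-fold lower. Their receptors Cx3cr1 (0.33 against 0.13 TPM) and Cxcr6 (0.85 against 0.49 TPM) were under the floor. Cxcl17, a chemokine of mucosal surfaces, stood at 2.18 TPM, about 15 reads, and was listed at 0 in the knockout library. Xcl1, which T and NK cells release to draw cross-presenting dendritic cells, stood at 1.36 against 0.98 TPM, and its receptor Xcr1 at 0.24 against 0.33 TPM. Cxcl14 was under the floor at 0.3 against 0.44 TPM.

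Among the ligands that organise lymphoid tissue, Cxcl13, the B cell follicle chemokine, stood at 5.71 against 0.5 TPM, a log2 ratio of -3.28. Its receptor Cxcr5 was low in both libraries, at 0.25 against 0.22 TPM. Ccl21a stood at 1.35 TPM and Ccl21c at 0.45 TPM, both against a listed 0, and the split between these near-identical genes is uncertain. Ccr7, their receptor, was listed at 0 in both libraries. Cxcl12, the stromal ligand of CXCR4, stood at 0.1 against 0.17 TPM and Cxcr4 at 0.5 against 0.2 TPM.

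Of the atypical receptors, Ccrl2, which binds the attractant chemerin and does not signal, stood at 2.8 against 0.88 TPM, a log2 ratio of -1.57. Ackr3, which removes CXCL12, stood at 1.37 against 1.43 TPM, and Ackr4, which removes CCL21 and CCL25, at 1.07 against 1.28 TPM. Ackr2, which removes inflammatory CC ligands, was under the floor at 0.42 against 0.21 TPM, and Ackr1 was listed at 0 in both libraries. As a class, all 23 receptor genes summed to 17.04 against 14.22 TPM, whereas the 34 ligands summed to 652 against 480 TPM. No receptor exceeded 6.01 TPM in either library.

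The 32 chemokine genes that were not measured reached at most 1.57 TPM in either library. Of these, 6 were listed at 0 in both libraries, namely Ackr1, Ccl1, Ccl12, Ccr3, Ccr7 and Ccr8. Another 8 had a value in the wild-type library only, and 1, Ccl24, had one in the knockout library only (0.18 TPM). Ccl11 and Ccl24, which draw eosinophils, and Ccl17 and Ccl22, the ligands of CCR4, reached at most 0.3 TPM, and Ccr4 stood at 0.08 against 0.04 TPM. At the estimated depth such values are a few reads, so differences among them were not detectable.

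Genes of 1 chromosome block did not always go together. On chromosome 11 (82035577 to 82179812, GRCm38) 6 CC ligands from Ccl2 to Ccl1 lie in a row, and their summed level was 30.2 against 0.3 TPM, with both measured genes, Ccl7 and Ccl8, at least 2-fold lower. A second block on the same chromosome (83525778 to 83664683) holds Ccl5, Ccl9, Ccl6, Ccl3 and Ccl4, and none (0) of its 3 measured genes was 2-fold apart, at a summed 415 against 299 TPM. In the CXC block of chromosome 5 (90759298 to 90905938) Cxcl5, Cxcl1 and Cxcl2 were at least 2-fold lower, and the 5 genes summed to 17.8 against 2.93 TPM. Of all measured genes 5.25% were at least 2-fold lower and 23.1% higher. Ccl7, Ccl8, Cxcl5 and Cxcl2 were measured only through their wild-type values. Cxcl9 and Cxcl10 are neighbours further along chromosome 5 and differed as given above.

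**Figure D3:**
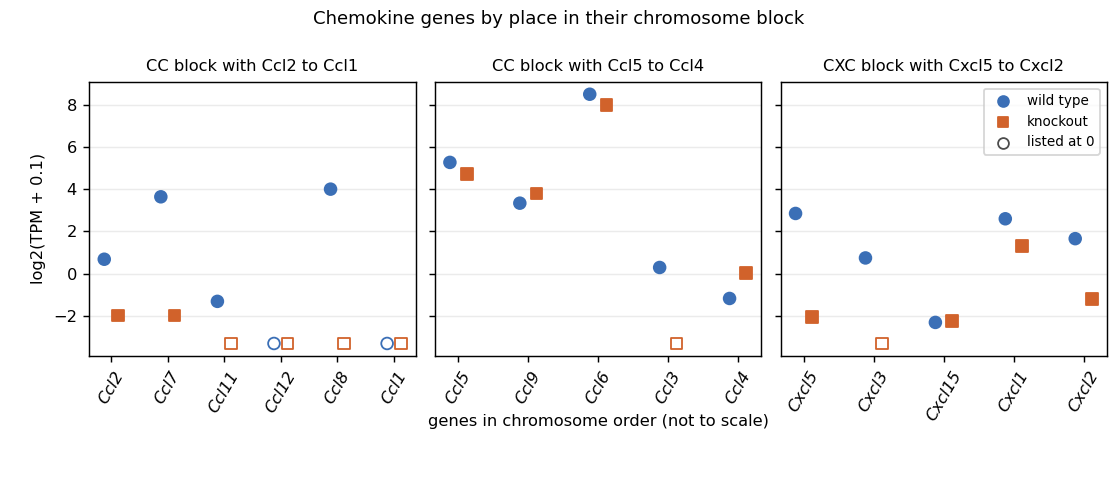
Level as log2(TPM + 0.1) of the chemokine genes of 3 chromosome blocks, in chromosome order and not to scale, in the wild-type (circles) and knockout (squares) library, with open symbols at a listed 0. Ccl7 and Ccl8 in the left block and Cxcl5 in the right block were far apart between libraries, while Ccl5, Ccl9 and Ccl6 in the middle block lay close together.

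Genes of signalling arms that induce inflammatory chemokines, with brakes on those arms among them, were measured beside them. Of the interferon-gamma arm, 7 of 8 genes were measured, 4 were 2-fold or more lower after knockout and none (0) higher, beside 5.25% and 23.1% of all measured genes. Their median log2 ratio was -1.02. Irf1, a factor that interferon-gamma induces, stood at 334 against 129 TPM, Socs1, a brake on Jak kinases, at 49.6 against 16 TPM, and Irf8 at 112 against 55.1 TPM. The receptor genes were closer, with Ifngr1 at 262 against 158 TPM and Ifngr2 at 159 against 163 TPM, and Jak1 stood at 58.1 against 45.9 TPM. Ifng itself was near 0 in both libraries, at 0.18 against 0.1 TPM.

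The NF-kappaB arm was mixed. Of 18 measured genes 5 were at least 2-fold lower, 2 at least 2-fold higher and 11 within 2-fold, with a median log2 ratio of -0.20. Of all measured genes 5.25% were lower and 23.1% higher by that measure. The cytokine genes Il1b and Tnf were lowest, at 5.38 against 0.09 TPM and 11.9 against 1.76 TPM, and Nfkbia, the inhibitor that NF-kappaB itself induces, stood at 190 against 84.2 TPM. Il1r1, a receptor for interleukin 1 cytokines, stood at 2.62 against 14.18 TPM and the subunit gene Nfkb2 at 45.5 against 98.5 TPM. The subunit gene Rela (64.7 against 69.4 TPM) and Nfkbiz (67.8 against 66.3 TPM) were nearly equal. The most abundant member was Zfp36, which speeds the decay of cytokine messages, at 298 against 143 TPM.

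Of 20 measured genes of receptor signalling, 4 (20%) were at least 2-fold lower and none (0) higher, beside 5.25% and 23.1% of all measured genes, and the median log2 ratio was -0.30. Rac2 and Vav1, which act mainly in blood cells, stood at 11.66 against 4.49 TPM and 4.33 against 1.92 TPM, and Gng2 and the kinase gene Ptk2b at 1.84 against 0.69 TPM and 64.6 against 30.4 TPM. Gnai2, the main inhibitory G protein subunit, was the most abundant at 614 against 309 TPM. Arrb2 and Gnai3 had the highest ratios, at 4.77 against 8.97 TPM and 79.6 against 109 TPM. None (0) of the 7 measured genes that cleave or hold chemokines was 2-fold apart, where 5.25% of all measured genes were lower and 23.1% higher. Among these, Dpp4, which trims CXCL10 and other ligands, stood at 15.4 against 14.4 TPM, the sheddases of CX3CL1 and CXCL16, Adam10 and Adam17, at 54.6 against 48.3 TPM and 17.1 against 16.7 TPM, and Ext1, which builds heparan sulfate, at 25.6 against 37.8 TPM. The heparan sulfate carriers Sdc1 and Sdc4 were the most abundant, at 119 against 113 TPM and 106 against 122 TPM, and Ndst1, a heparan sulfate sulfotransferase, stood at 34 against 27.8 TPM.

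Immune and stromal markers also differed, and in bulk RNA fewer cells of a type and less RNA per cell cannot be told apart. By any amount, 5386 of all 18067 genes were lower and 11951 higher in the knockout library, and the counts of markers below are to be read beside these. The 8 T and NK cell markers in the table were all lower in the knockout library and summed to 61.4 against 23.4 TPM, with Cd3e at 3.99 against 2.19 TPM and Gzma at 22.1 against 6.75 TPM. The 8 monocyte and macrophage markers summed to 27.8 against 16.3 TPM, with 6 of 8 lower, C1qa at 2.72 against 2.82 TPM and Adgre1 at a listed 0 against 0.04 TPM. The 5 neutrophil markers were all lower and summed to 308 against 53.9 TPM. Nearly all of that was Ly6g, at 290 against 52.1 TPM, and the other 4 summed to 17.9 against 1.83 TPM, with S100a9 and Retnlg listed at 0 in the knockout library. The 4 B and plasma cell markers summed to 2.4 against 0.88 TPM, the 5 dendritic cell markers, which include Xcr1, to 2.73 against 2.87 TPM, and the 6 endothelial markers to 5.31 against 3.98 TPM. The 4 smooth muscle markers summed to 7.08 against 1.81 TPM. The 7 fibroblast markers summed to 34.2 against 124 TPM, with 6 of 7 higher in the knockout library. Col1a2 stood at 3.76 against 64.4 TPM, Dcn at 13.6 against 34.9 TPM and Pdgfrb at 2.68 against 12.41 TPM. Col1a1 was nearly equal at 7.95 against 8.05 TPM, and Col3a1, the 1 lower marker, stood at 5.73 against 3.18 TPM. The 8 epithelial markers summed to 25480 against 14632 TPM and the 6 stem cell markers to 60.9 against 72.5 TPM. The part of these cells in the chemokine differences was not tested.

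**Figure D4:**
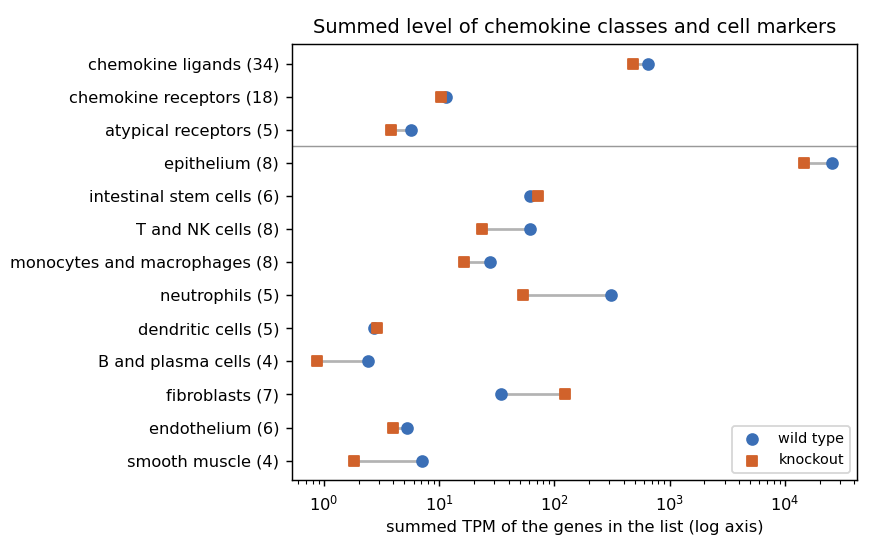
Summed TPM (log axis) of the chemokine ligands, receptors and atypical receptors above the line and of 10 lists of cell markers below it, with the number of genes in brackets, in the wild-type (circles) and knockout (squares) library. Summed epithelial, T and NK cell, neutrophil and smooth muscle markers were lower in the knockout library and fibroblast markers higher.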

How the data were processed

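FPKM and TPM per gene and library were deposited by the authors in 1 table, per the file headers, with 2 decimals. Bowtie2, RSEM, DESeq2 and build mm10 are named, without versions or roles, in the submitters' processing notes. The deposited TPM values (fragments scaled by transcript length to a sum of 1000000 a library) were the main unit, and the deposited FPKM values (fragments per kilobase and per 1000000 fragments) an alternative. TPM is a share, so abundant genes lower all others, and estimates of near copies such as Ccl21a and Ccl21c are uncertain. Libraries were made from total RNA with an MGIEasy kit, per the labels' protocols. The sources used here do not give the strand setting.

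Of 18068 lines 1 carried no values and was left out, and 0 columns of values were left out. Ratios were log2((knockout TPM + 0.1)/(wild-type TPM + 0.1)), which understates differences of low genes. Folds are plain TPM ratios, given only where both libraries reached 1 TPM. Depth was the read total at which most low FPKM values of genes with 1 transcript of 300 to 1000 bases (GENCODE M21) were whole reads. At that depth 59.8% of 97 wild-type and 60% of 115 knockout values were whole to within 0.15, where chance gives 30%. With shortened lengths it reached 20750000 and 19250000 reads. Read numbers in the text are this estimate times FPKM and the longest coding transcript, and they carry no interval. Positions came from RefSeq GRCm38.p6, matched for 57 of 57 genes by gene ID. Blocks are genes within 250 kb of the next.

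Every measured member is named, and of each pathway list the 2 highest, the 2 lowest and the most abundant, except a few genes left out of the text. The members and lists were chosen with earlier results of these data known. Calculations used Python 3.11.15, pandas 2.3.3 and numpy 2.4.6 and were tested on simulated data. Alternatives changed the pseudocount, unit, scaling and floor.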

Additional observations from a re-analysis of the deposited data

How the results depend on the processing

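The count of chemokine genes at least 2-fold lower stayed at 11 of 25, and that of higher genes at 1, with pseudocounts of 0.01 and 1 TPM, from FPKM, and after centring on the median gene or trimmed mean scaling. Over all genes the 2 scalings moved the counts from 2924 higher and 665 lower to 1716 and 1295 (median) or 1687 and 1317 (trimmed mean, a shift of 0.4), so that 10.2% or 10.4% of all genes were then lower. The floor moved the counts: with no floor 21 of 57 chemokine genes were lower and 3 higher (6.51% and 23.2% of all genes), at a mean of at least 5 TPM 3 of 10 were lower (4.49%), and at 1 TPM or more in both libraries, chosen after seeing the data, 2 of 14 were lower (4.49%) and the median log2 ratio was 0.02. With 1 TPM in either library 15 of 30 were lower (5.66%) and the ligand median went from -0.59 to -1.50. No ratio of a gene at least 2-fold apart changed sign. The ratio moved by over 1.5-fold for 4 genes at a pseudocount of 0.01 TPM, for 8 at 1 TPM and for 2 from FPKM, among them Ccl8 (-7.33, with -10.64, -4.08 and -6.29) and Cxcl17 (-4.51, with -7.77, -1.67 and -3.52), both listed at 0 in the knockout library. At 0.01 TPM Cxcl17 lay below Ccl7 (-6.28), at 0.1 TPM above it (-5.64). At about 1 and 2 reads, the knockout values of Ccl7 and Cxcl5 leave the size of their ratios to depth. The median over receptors and atypical receptors together, 0.15 for the 6 measured, turned to -0.24 and -0.26 under the scalings and to -0.36 with no floor. No paired analysis was possible because each genotype had 1 library.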

Other observations

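Several attractants act like chemokines but carry other names, and they were looked up after the table had been seen. Pf4, the CXC ligand of platelets, stood at 2.48 against 0.62 TPM, and its relative Ppbp at a listed 0 against 0.11 TPM. Mif, a cytokine that binds CXCR2 and CXCR4, was nearly equal in both libraries, at 551 against 542 TPM. Cd74, looked up beside Mif, stood at 3635 against 100 TPM, a log2 ratio of -5.18. Rarres2 (chemerin, which Ccrl2 binds) stood at 13.02 against 12.73 TPM and its signalling receptor Cmklr1 at 1.27 against 1.25 TPM. Cmtm3, of the chemokine-like factor family, stood at 1.18 against 36.6 TPM, Cklf at 5.26 against 13.19 TPM, Cmtm7 at 14.83 against 31.06 TPM, Cmtm8 at 5.33 against 7.18 TPM and Cmtm6, the most abundant of these 5, at 83.3 against 61.7 TPM. The leukotriene enzyme Lta4h stood at 93.2 against 98.9 TPM and the leukotriene receptor Ltb4r1 at 1.4 against 1.76 TPM, while the formyl peptide receptor Fpr1, of neutrophils, stood at 0.41 against 0.09 TPM.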
